A study of Mus musculus with 2 samples.

Results

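Oligodendrocyte precursors (OPC) were the 606 nuclei, of 16314 in all, that carried the deposited name OPC in the 2 single-nucleus ATAC-seq libraries analysed here, of which replicate 1 gave 279 and replicate 2 gave 327. They were chosen by that name alone. They are set beside the 1702 nuclei named OGC (oligodendrocytes) and the 1690 named ASC (astrocytes). Single-nucleus ATAC-seq counts the DNA fragments that a transposase cuts from open chromatin in each nucleus.

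Both libraries were made on the droplet-based 10x platform from MOp-2, a dissection that takes in part 2 of the primary motor cortex, and form 1 group of 2 replicates with no treatment. The animals were adult male C57BL/6J mice of 56 to 63 days. The methods describe pooled tissue from several mice for each biological replicate, and do not repeat this for the 10x libraries. The 7440 nuclei of replicate 1 summed to 48179226 unique fragments and the 8874 of replicate 2 to 55337466, and each table used 17 names. With 1 group there is no contrast between conditions. Nuclei of 1 library are not replicates, and no p-value was computed. Values are given per library and as mean ± SD over the 2 libraries.

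OPC are the dividing cells of the oligodendrocyte lineage. They persist through adult life, tile the grey and white matter, and receive synapses from neurons. Some of them leave the cell cycle, pass through a short-lived premyelinating state and become oligodendrocytes, which wrap axons in myelin. Astrocytes belong to another glial lineage, take up transmitters and potassium and contact blood vessels.

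Positions of the marker genes listed for OPC are given in mm10 (GRCm38), after GENCODE M21. Pdgfra, the receptor for platelet-derived growth factor that drives OPC proliferation, spans 75152292 to 75198215 on chromosome 5, plus strand. Olig2, a basic helix-loop-helix factor needed for the oligodendrocyte lineage, spans 91225457 to 91228677 on chromosome 16, plus strand. Nkx2-2, a homeobox factor of the same lineage, spans 147177546 to 147194243 on chromosome 2, minus strand. C1ql1, a secreted C1q-like protein, spans 102939264 to 102946688 on chromosome 11, minus strand. The tables used here hold a name, fragment totals and a position for each nucleus and no value per gene. Accessibility at these genes was therefore not analysed here, and the name OPC could not be checked against its markers.

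Both libraries gave nearly the same number of OPC for each oligodendrocyte. Replicate 1 held 279 OPC and 782 OGC nuclei, a ratio of 0.357 (95% interval 0.310 to 0.410). Replicate 2 held 327 OPC and 920 OGC nuclei, a ratio of 0.355 (0.312 to 0.404). The mean was 0.356 ± 0.00095 (SD, n = 2), which corresponds to 2.80 and 2.81 OGC nuclei for each OPC nucleus. Intervals are exact (Clopper-Pearson) and cover counting error only. The libraries differed by far less than either interval is wide.

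OPC were 3.75% of all nuclei in replicate 1 (3.33 to 4.21%) and 3.68% in replicate 2 (3.30 to 4.10%), a mean of 3.72% ± 0.0460 (SD, n = 2). Of the nuclei with an OPC or OGC name, OPC made up 26.3% (23.7 to 29.1%) and 26.2% (23.8 to 28.8%). On the log2 scale, replicate 2 differed from replicate 1 by −0.03 in the share of all nuclei, with a counting interval of −0.25 to 0.20. Its difference in the share of OPC and OGC nuclei had an interval of −0.20 to 0.19. Neither share differed between the libraries beyond counting error. By number of nuclei, OPC ranked 10 of 17 names in replicate 1 and 11 in replicate 2, and 4 of the 7 non-neuronal names in both.

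The ratio to astrocytes was close to that to oligodendrocytes and varied more between the libraries. Replicate 1 held 801 ASC nuclei and an OPC to ASC ratio of 0.348 (0.303 to 0.3997). Replicate 2 held 889 and a ratio of 0.368 (0.323 to 0.418). The mean was 0.358 ± 0.0138 (SD, n = 2), and the intervals of the libraries overlap.

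**Figure D1:**
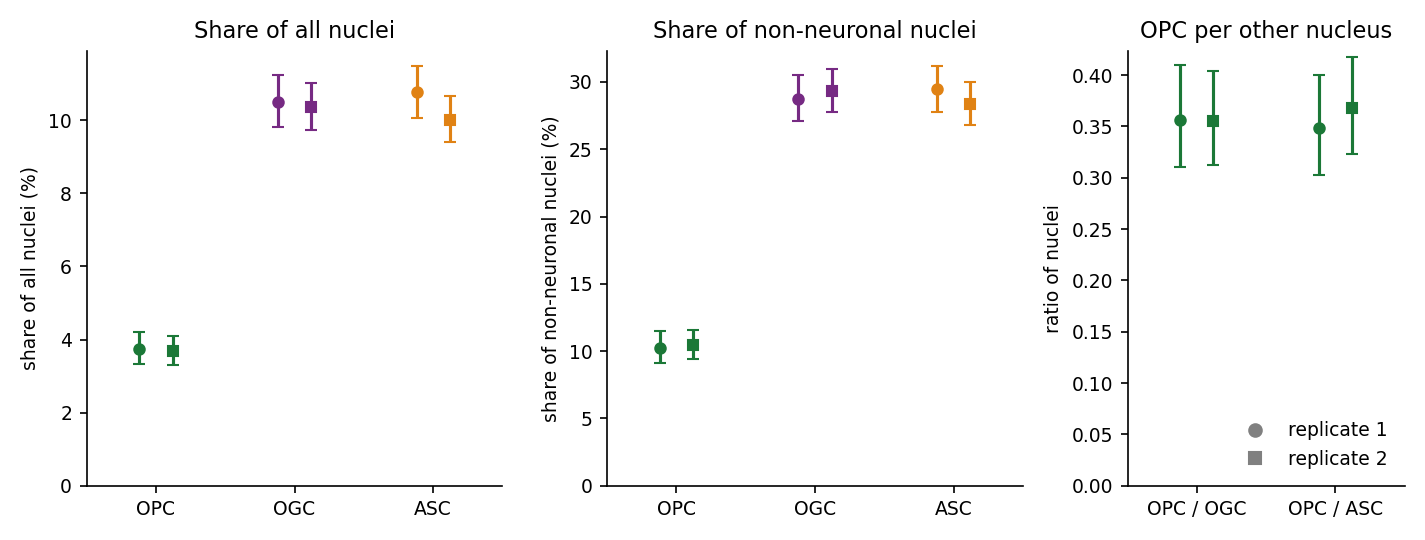
Shares of nuclei named OPC, OGC and ASC among all nuclei (left, %) and non-neuronal nuclei (middle, %), and OPC nuclei per OGC or ASC nucleus (right, ratio), with circles for replicate 1, squares for replicate 2 and bars for exact 95% counting intervals. OPC were 3.75% and 3.68% of all nuclei, below both other names, and the OPC to OGC ratios of 0.357 and 0.355 almost coincide.

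OPC nuclei yielded more fragments than OGC nuclei, and slightly more than ASC nuclei, in both libraries. In replicate 1, unique fragments per OPC nucleus ran from 1033 to 10618 with a median of 3660. In replicate 2 they ran from 1021 to 11030 with a median of 3276. The lower and upper quartiles of replicate 1 were 2858.5 and 4482, and those of replicate 2 were 2501.5 and 4455.5. The mean of the 2 medians was 3468 ± 272 (SD). The ranges of OPC, OGC and ASC overlapped over nearly their whole length.

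Medians of OGC were 2466.5 and 2326.5 unique fragments, and medians of ASC were 3329 and 3023. The OPC median was 1.48 times the OGC median in replicate 1 and 1.41 times in replicate 2, a mean of 1.45 ± 0.0536 (SD, n = 2). Against ASC it was 1.10 and 1.08 times, a mean of 1.09 ± 0.0111. Both ratios were above 1 in both libraries and exceeded 1 by several times their SD. In pairs of nuclei drawn from 1 library, the OPC nucleus held more unique fragments than the OGC nucleus in 74.6% and 71.3% of pairs, and more than the ASC nucleus in 57.2% and 55.7%. Exact tests over 2 libraries cannot give a two-sided p below 0.5, and none was made.

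The counts of fragments before duplicates were removed gave the same picture. Median total fragments (the column TN) of OPC nuclei were 4432 and 4041, uniquely mapped fragments (UM) 4239 and 3858, and properly paired fragments (PP) 4216 and 3844. Ratios to OGC averaged 1.44 in each of these columns, and ratios to ASC averaged 1.09. The excess of OPC over OGC therefore stood in the total count and changed little through the later steps.

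OPC ranked 2 of 7 non-neuronal names by median unique fragments in replicate 1 and 1 of 7 in replicate 2. The other name at the top, VEC (vascular endothelial cells, named after its values were seen), had medians of 4256 and 3252. The lowest median of any neuronal name was 6105 in replicate 1 and 5668 in replicate 2, above the OPC median in both. OPC nuclei therefore held 2.21% and 2.16% of the unique fragments of their libraries, less than their share of nuclei. Of the unique fragments of OPC and OGC nuclei together they held 33.5% in each library. From replicate 1 to replicate 2 the median fell by 10.5% for OPC, by 5.68% for OGC, by 9.19% for ASC and by 11.5% over all nuclei.

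**Figure D2:**
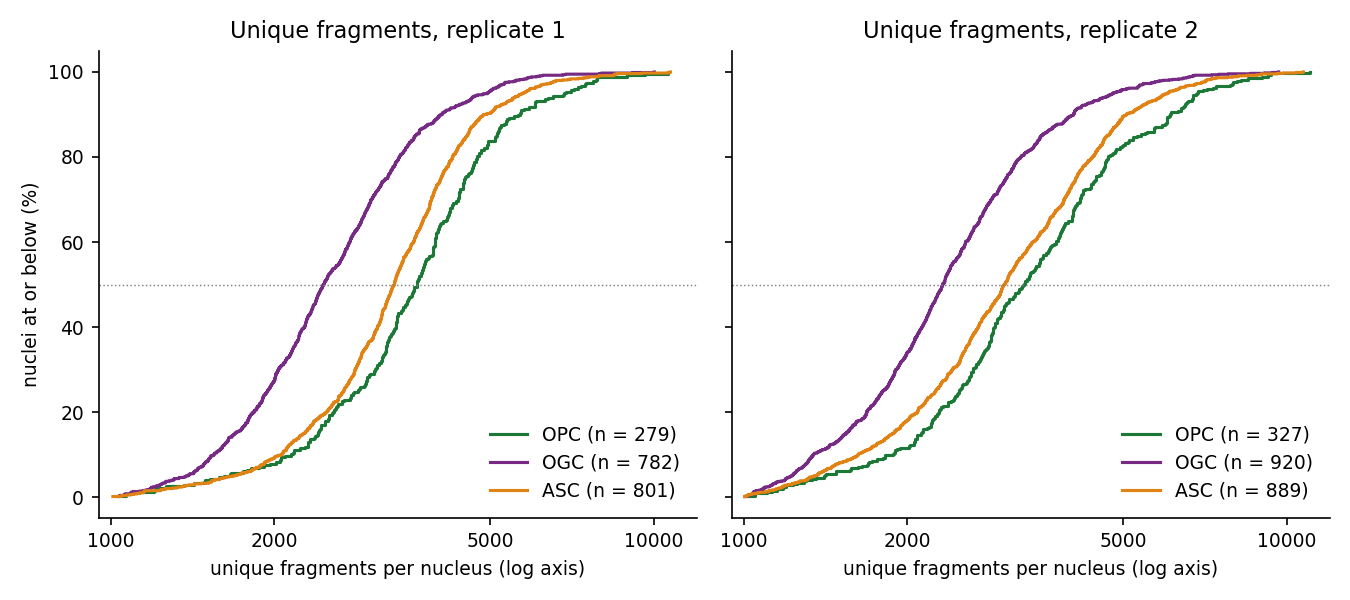
Cumulative share of nuclei (%) at or below each number of unique fragments (log axis) for OPC (green), OGC (purple) and ASC (orange) in replicate 1 (left) and replicate 2 (right), with a dotted line at the median. The OPC curve crosses it at 3660 and 3276 unique fragments, to the right of OGC (2466.5 and 2326.5) and of ASC (3329 and 3023).

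OPC had fewer shallow nuclei and more deep ones than OGC. Under 2000 unique fragments lay 7.89% and 11.6% of OPC nuclei, 27.2% and 34.0% of OGC nuclei, and 9.24% and 18.0% of ASC nuclei. Under 3000 lay 29.0% and 43.7% of OPC nuclei beside 69.2% and 73.7% of OGC nuclei, a wider gap than under 2000. At 5000 or more lay 16.1% of OPC nuclei in replicate 1 (45 of 279) and 17.4% in replicate 2 (57 of 327). The same limit was reached by 4.48% and 4.13% of OGC nuclei and by 9.74% and 10.5% of ASC nuclei. In each library 1 OPC nucleus held 10000 or more. OPC spread a little more than OGC and ASC. The SD of log10 unique fragments was 0.175 and 0.1997, beside 0.164 and 0.177 for OGC and 0.159 and 0.193 for ASC.

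The precursor share of the lineage thus differed with depth. Among OPC and OGC nuclei of replicate 1, OPC were 9.36% of those with 1000 to 2000 unique fragments, 15.2% from 2000 to 3000, 37.3% from 3000 to 4000, 54.5% from 4000 to 5000 and 56.3% from 5000 upwards. In replicate 2 the shares were 10.8%, 22.3%, 32.1%, 50% and 60.0%. The share was higher in each deeper bin in both libraries. The ratio of OPC to OGC nuclei went from 0.103 in the lowest bin to 1.29 in the highest in replicate 1, and from 0.121 to 1.5 in replicate 2. The deposited tables start at 1000 unique fragments, and how many nuclei of each name fell under that minimum was not analysed here. The ratio of 0.356 therefore holds for nuclei above it and is not a ratio of cells in the tissue.

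**Figure D3:**
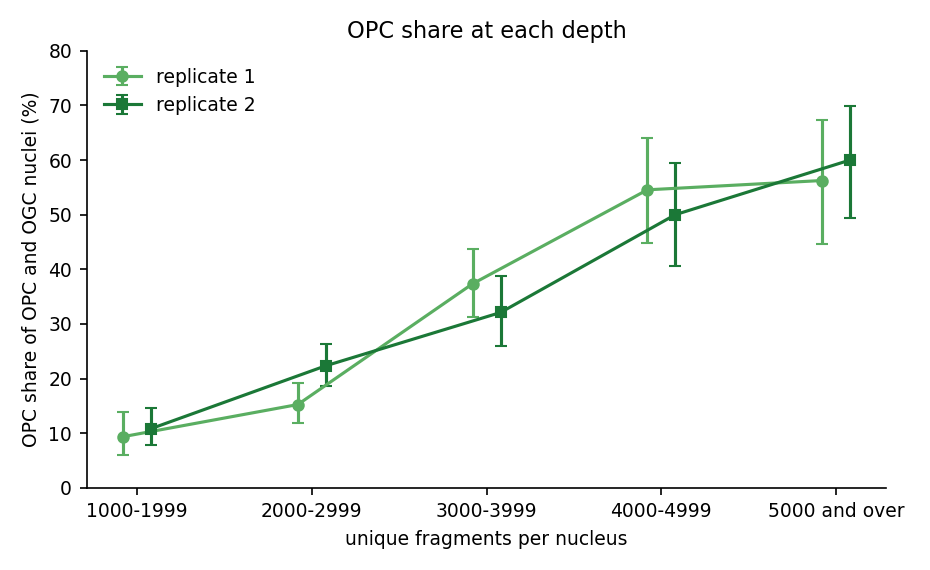
OPC as a share of OPC and OGC nuclei (%) in 5 bins of unique fragments per nucleus, with light circles for replicate 1, dark squares for replicate 2 and bars for exact 95% counting intervals. The share goes from 9.36% and 10.8% in the lowest bin to 56.3% and 60.0% in the highest.

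Fragments of OPC nuclei passed the later steps at nearly the same rate as those of OGC and ASC. The uniquely mapped share of total fragments had a median of 95.9% in each library (95.9% ± 0.0574, SD, n = 2), beside 96.2% ± 0.0540 for OGC and 95.6% ± 0.0412 for ASC. OPC thus lay between OGC and ASC, with gaps several times larger than the SD between libraries. The properly paired share of mapped fragments was 99.6% for all 3 names. Of the total fragments, 81.6% ± 0.511 of those of an OPC nucleus (median) remained as unique fragments, beside 81.8% ± 0.608 for OGC and 81.4% ± 0.504 for ASC. Within each library OPC lay above ASC, by 0.219 and 0.209 percentage points, and differed from OGC by −0.279 and −0.142.

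The duplicate share of properly paired fragments had an OPC median of 13.9% in replicate 1 and 14.7% in replicate 2, a mean of 14.3% ± 0.570 (SD, n = 2). OGC and ASC each averaged 14.4%, with SDs of 0.635 and 0.601, and OPC lay slightly below both in each library. Within each library it differed from OGC by −0.049 and −0.141 percentage points, and from ASC by −0.075 and −0.118. These gaps were smaller than the SDs between libraries. Duplicates rise with the number of fragments, and OPC nuclei held more. Within 5 bins of properly paired fragments in each library, the OPC median was below the OGC median in 10 of 10 bins, by 0.153 to 0.885 percentage points, and above the ASC median in 2 of 10. OPC nuclei therefore did not hold more duplicates than OGC nuclei of like depth.

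In the deposited embedding (umap1 and umap2, a plane without units in which nuclei with like profiles lie close), OPC formed 1 compact body apart from every other name. Joining nuclei within a distance of 1, all 606 OPC nuclei fell into 1 body, together with 1 nucleus named VEC (1573 unique fragments). Their centre lay at umap1 −10.37 and umap2 3.73. Names and positions come from the same profiles, and the separation of the names is a description, not a test.

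The 30 nearest neighbours of OPC nuclei were OPC in 99.93% of cases in replicate 1 and in 99.98% in replicate 2. The only other neighbour name was VEC, from the nucleus above, and no OPC nucleus had an OGC or ASC neighbour. All 30 neighbours were OPC for 273 of 279 nuclei in replicate 1 and for 325 of 327 in replicate 2. The libraries lay intermixed within the body. Neighbours came from the other library in 52.9% of cases for replicate 1, where even mixing among OPC would give 54.0%, and in 44.6% for replicate 2, where it would give 46.1%.

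By the centres, astrocytes were nearer to OPC than oligodendrocytes were, at 5.22 against 8.58 units. MGL (microglia, the immune cells of the brain) lay nearer still, at 4.94. Distances between separate bodies are not taken here as a measure of how alike their profiles are. By the gap that has to be crossed from nucleus to nucleus, OGC was nearer than ASC, but only through an islet of 23 nuclei named OGC. The longest step on the shortest tree that joins the OPC and OGC centres was 2.31 in replicate 1 and 1.92 in replicate 2, a mean of 2.12 ± 0.273 (SD, n = 2). It was the lowest of the 16 other names in both libraries, and it led from OPC to the islet. The next were MGL at 3.52 and 3.35, and ASC at 3.62 and 3.56. Without the islet, which is 6 nuclei in replicate 1 and 17 in replicate 2, the longest step from OPC to OGC was 4.35 and 4.18 (4.27 ± 0.121, SD, n = 2). It then ranked 3 of 16, behind MGL and ASC, whose nuclei were all kept. By this gap, as by the centres, ASC lay nearer to OPC than the main OGC body did. Leaving out nuclei chosen for lying between the centres could not shorten the step, so this rank is a description only. Even with the islet the step was 88.7 and 76.5 times the median distance between nearest OPC nuclei (0.0260 and 0.0252), and in neither case did a continuous path of nuclei join OPC to OGC.

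**Figure D4:**
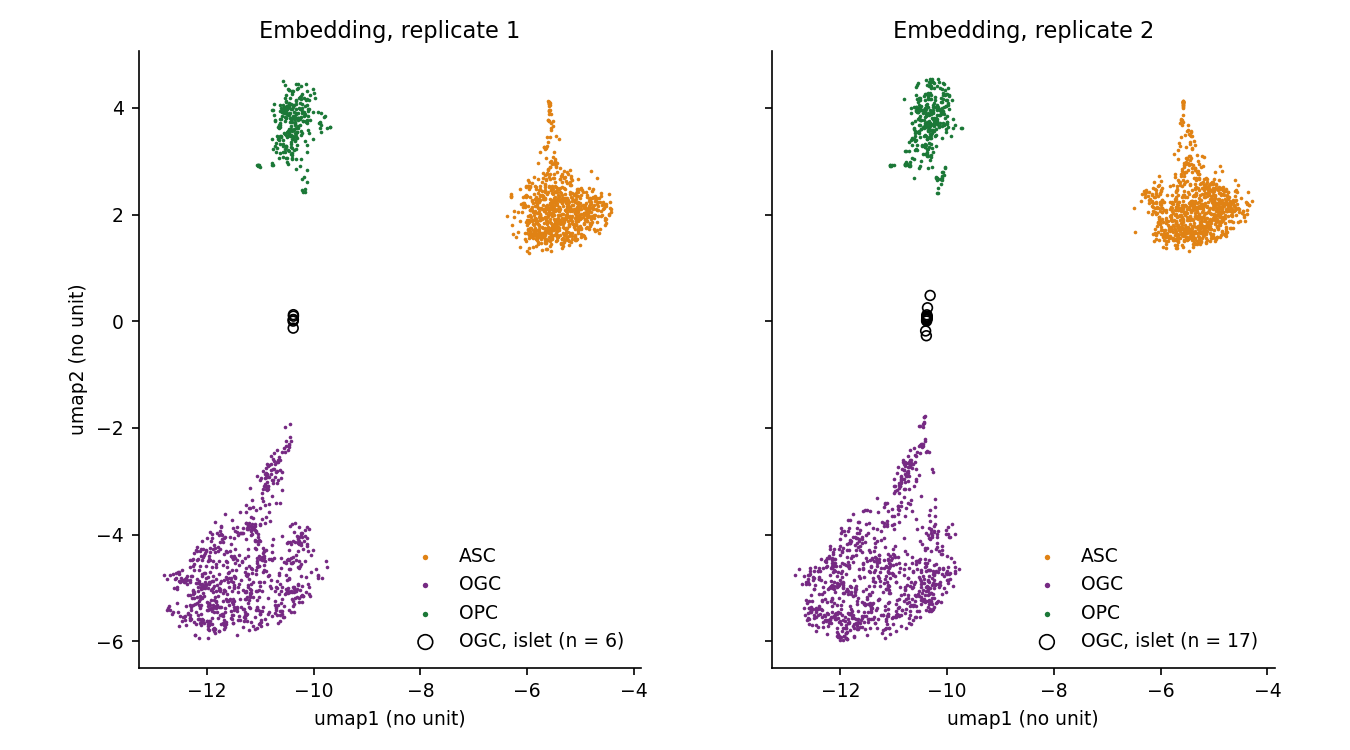
Positions of OPC (green), OGC (purple), ASC (orange) and the OGC islet (open circles) in the embedding (umap1 against umap2, no unit) in replicate 1 (left) and replicate 2 (right). OPC and OGC form separate bodies with an islet of 6 and 17 OGC nuclei between them, and no nucleus of the 3 names joins OPC to ASC.

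What lay between OPC and OGC carried the oligodendrocyte name. Places along the line between the centres are given as 0 at the OPC centre and 1 at the OGC centre. From 0.25 to 0.75, within 0.25 of its length to either side, lay 32 nuclei in replicate 1 and 60 in replicate 2. All of them were named OGC, and none was OPC or of any other name. Of these, 6 and 17 were islet nuclei, and the rest were the near edge of the main OGC body. The 32 and 60 nuclei were 3.02% (2.07 to 4.23%) and 4.81% (3.69 to 6.15%) of OPC and OGC nuclei. This share was higher in replicate 2, and no interval was computed for its difference between the libraries. No name for a state between precursor and oligodendrocyte was used in these tables, and this sets no limit on how many such cells carried another name.

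The line had 2 empty stretches. OPC reached to 0.149 in replicate 1 and 0.152 in replicate 2, and the main OGC body began at 0.656 and 0.639. Between them stood the islet of 23 nuclei named OGC, at places from 0.376 to 0.464. No nucleus of any name lay in the corridor between OPC and the islet, or between the islet and the main OGC body. The islet was defined after the positions were seen, as the OGC nuclei outside the main OGC body that lie between the centres. Its distance to the nearest OPC nucleus was 2.31 and 1.92, and that to the nearest other OGC nucleus was 1.79 and 1.501. By the closest nucleus it thus stood nearer to OGC than to OPC in both libraries. By place on the line it stood nearer to the OPC centre, with median places of 0.429 and 0.424.

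The islet held 0.566% of OPC and OGC nuclei in replicate 1 (0.208 to 1.23%) and 1.36% in replicate 2 (0.796 to 2.17%), a mean of 0.964% ± 0.564 (SD, n = 2). The log2 ratio of the libraries was 1.27 with a counting interval of −0.07 to 2.61, so a difference between them was not detectable at these counts. Of the 30 nearest neighbours of its nuclei, 73.3% were in the islet, 25.2% were other OGC and 1.45% were OPC. The first share is the most that a group of 23 allows (22 of 30), so the remaining neighbours had to lie outside it.

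Islet nuclei held about as many fragments as the deeper OPC nuclei. The 6 nuclei of replicate 1 held 2673, 3485, 4609, 5206, 5319 and 5569 unique fragments, a median of 4907.5. The 17 of replicate 2 ran from 1268 to 9665 with a median of 4858. These medians were 2.00 and 2.10 times those of the other OGC nuclei (2456 and 2314), and 1.34 and 1.48 times those of OPC. All 6 islet nuclei of replicate 1 and 15 of 17 in replicate 2 lay above the median of the other OGC. Their duplicate shares, with medians of 13.6% and 14.8%, lay near those of the other OGC (14.0% and 14.9%) and of OPC (13.9% and 14.7%). Doublet scores were not analysed here, and the part of doublets in the islet was not tested.

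Along the line to OGC, depth within OPC was greatest in the part nearest to OGC. Depth of OPC nuclei also rose toward lower umap1, the side of MGL (Spearman correlation −0.18 and −0.28). That direction was not divided into parts, so sides of the body were not compared. With the OPC nuclei of each library divided into 3 equal parts along the line, the part farthest from OGC had a median of 3422 unique fragments in replicate 1 and 2837 in replicate 2. The middle part had 3736 and 3013, and the part nearest to OGC had 4003 and 4357. The nearest 5% of OPC nuclei had 5407.5 (14 nuclei) and 4630 (17 nuclei). In replicate 1 they include 6 nuclei of a small deep group at the edge of the body, without which the median of the other 8 was 4479, and in replicate 2 they include none of it. Depth thus stood in the same order in both libraries over the 3 parts, also without that group (medians of 3422, 3785 and 3938 for replicate 1 and of 2829, 3006 and 4211 for replicate 2).

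Along the same line, the OGC body, without the islet, was also deepest in the part nearest to OPC. Its part nearest to OPC had medians of 2791 and 2435, its middle part 2330.5 and 2273, and its far part 2358 and 2227. Its nearest 5% had 3613 (39 nuclei) and 3974 (46 nuclei). The part next to the gap was thus the deepest of the 3 in both names and both libraries, while the middle and far parts of OGC differed in order between the libraries. The islet, which stood in the gap, had a mean of its 2 medians of 4883 unique fragments.

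Over OPC nuclei, place along the line and unique fragments had a Spearman correlation of 0.26 in replicate 1 and 0.39 in replicate 2 (Pearson 0.28 and 0.39). For OGC it was −0.16 and −0.14, and for ASC 0.07 and 0.12. ASC lies off this line, so its values do not measure depth toward OPC. Along umap1, where ASC lies higher than OPC, ASC had −0.16 and −0.25, deeper on the side of OPC. These are descriptions over 279 and 327 OPC nuclei that share a library, with no p. The embedding was computed from the same fragments, and whether depth entered the positions was not tested. The uniquely mapped share went the other way, from 96.1% and 96.2% in the far part of OPC to 95.4% and 95.7% in the part nearest to OGC. In the nearest 5% it was 95.3% in replicate 1 and 96.1% in replicate 2, so the libraries differed there.

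**Figure D5:**
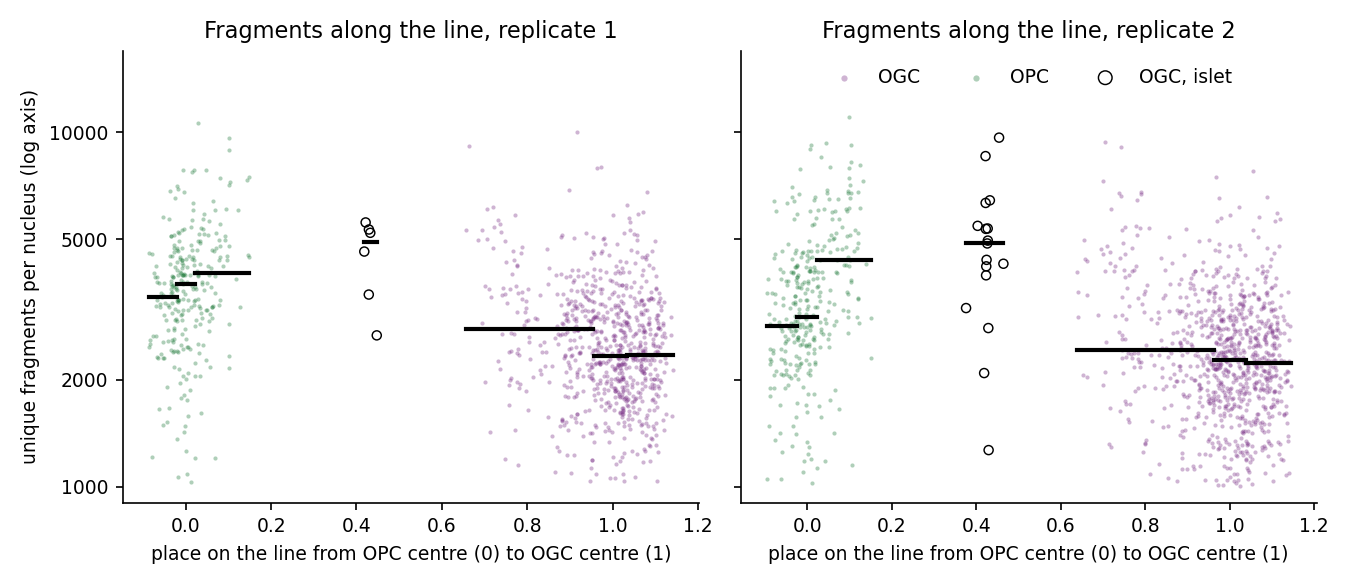
Unique fragments per nucleus (log axis) against place on the line from the OPC centre (0) to the OGC centre (1) in replicate 1 (left) and replicate 2 (right), with points for OPC (green) and OGC (purple) nuclei, open circles for the islet and black bars for medians of the islet and of 3 equal parts of each name. OPC medians go from 3422 and 2837 on the far side to 4003 and 4357 on the side facing OGC, and the islet medians are 4907.5 and 4858.

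Inside the OPC body, a finer step of 0.1, chosen after the positions were seen, gave 9 groups, the largest of 554 nuclei, while a step of 0.2 left all OPC in 1 body. The next in size held 27 nuclei (8 and 19) at umap1 −10.17 and umap2 2.67, the tip of the body that faces OGC. Its median was 4479 unique fragments in replicate 1 and 4218 in replicate 2, beside 3617 and 3230 for the remaining OPC. The tip was thus deeper than the remaining OPC in both libraries.

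The third in size held 12 nuclei, 6 in each library, at umap1 −11.04 and umap2 2.92. Those of replicate 1 held 2168, 4773, 7113, 7255, 8910 and 9619 unique fragments. Those of replicate 2 held 3787, 4357, 5116, 6531, 6724 and 8235. Their medians of 7184 and 5823.5 were 1.99 and 1.80 times those of the remaining OPC (3617 and 3242), and 5 of 6 and 6 of 6 lay above them. This small group came in equal number from both libraries and was deeper than the remaining OPC in both. Its duplicate medians of 13.6% and 15.2% lay close to those of OPC at large, and the part of doublets in it was not tested. The fourth in size held 5 nuclei (3 and 2), with medians of 2097 and 3415.5 beside 3665.5 and 3276 for the remaining OPC, below them in replicate 1 and above them in replicate 2. The last 5 groups held 8 nuclei in all.

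Of the barcodes, 105 occurred in both libraries. Of these, 2 were named OPC in replicate 1 and 3 in replicate 2, and none was OPC in both, so shared barcodes touch 5 of 606 OPC nuclei at most. No barcode had the same total of fragments in both libraries.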

How the data were processed

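Nuclei of 2 10x single-nucleus ATAC-seq libraries were analysed. The authors deposited, per nucleus, whole-number counts of total (TN), uniquely mapped (UM), properly paired (PP), unique (UQ) and mitochondrial fragments (0 in all nuclei), with meanings after the names SnapTools uses. The deposited log10 values are the log10 of UQ plus 1. The deposited embedding coordinates are scores without a unit, and no source used here states if other nuclei entered their computation. Per the methods, the authors aligned reads to mm10 with bwa, removed duplicates with SnapTools, filtered nuclei on unique fragments and TSS enrichment, and removed barcode collisions and doublets (modified Scrublet). The submitters' processing notes also name Cell Ranger ATAC and GRCm38. Its role is, like both versions, not given in the sources used here. The lowest deposited UQ was 1000, and the effect of this minimum on the shares was not tested. Higher minimums of 2000 and 5000 gave higher ratios of OPC to OGC nuclei.

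Per library, shares and ratios of nuclei were computed with exact Clopper-Pearson 95% intervals, medians of counts, step shares, 30 nearest neighbours, the longest edge of the minimum spanning tree between centres, and nuclei from 0.25 to 0.75 of the line between centres. Bodies joined nuclei within 1 unit. Nothing was tested between conditions. Scripts were tested on simulated data. Among genes the 4 markers listed for OPC were named, by position only. Among annotated names, OPC, OGC and ASC were named, and any other that was 1 of the 3 nearest to OPC by the longest step or held at least 1% of its neighbours. Alternatives were minimums of 2000 and 5000, leaving out the 5% deepest nuclei, pooled or summed nuclei, geometric means, TN, 10 or 100 neighbours, a narrower corridor, a tree through all names and each library alone. The islet and its alternatives were chosen after seeing the data. The members, names and lists were chosen with earlier results of these data known. Intervals came from scipy 1.17.1, neighbours from scikit-learn 1.9.0 and figures from matplotlib 3.10.9, with pandas 2.3.3 and numpy 2.4.6 under Python 3.11.15.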

Additional observations from a re-analysis of the deposited data

How the results depend on the processing

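No paired analysis was possible because both libraries are of the same condition, MOp-2. Of 67 alternative values other than leaving out a library, 43 moved by less than the spread between replicates and 24 by more. The mean of 2 libraries cannot move by more than that spread when 1 is left out, so those 30 values say nothing of stability. Some of the 43 were likewise fixed in advance. Shares and ratios of pooled nuclei lie between those of the 2 libraries. No OPC, OGC or ASC nucleus was among the 5% deepest, so leaving these out could not change values computed from those names alone. Minimums of unique fragments gave 17 of the 24, and several of these were fixed in advance too. A minimum of 5000 lies above the OPC medians and must raise them. Both minimums leave out the VEC nucleus in the OPC body (1573 unique fragments), the only neighbour of another name. Both leave out a larger share of OGC than of OPC nuclei, which must raise the OPC to OGC ratio of nuclei. Why depth differed between the names was not tested. With at least 2000, OPC were 12.4% of non-neuronal nuclei and 31.7% of OPC and OGC nuclei, the ratio of nuclei was 0.464 to OGC and 0.375 to ASC, and the ratio of unique fragments was 1.29 to OGC and 1.07 to ASC. With at least 5000, OPC were 1.12% of all, 18.1% of non-neuronal and 58.1% of OPC and OGC nuclei, the ratio of nuclei was 1.39 to OGC and 0.595 to ASC, the median was 6207 unique fragments, its ratio was 1.09 to OGC and 1.06 to ASC, and a mean of 6.5 nuclei lay between OPC and OGC. At either minimum 100% of OPC neighbours were OPC, and with 10 neighbours 99.9%. Without the 5% deepest nuclei OPC were 3.91% of all nuclei. The corridor from 0.4 to 0.6 held a mean of 11 nuclei, and summed counts gave a uniquely mapped share of 95.6%. Chosen after seeing the data, the OPC to OGC ratio was 0.361 without the islet and 0.374 with the islet counted as OPC, and the longest step from OPC to OGC was 4.27 without the islet. With each library alone, values ranged from 3.68% to 3.75% of all nuclei, from 0.355 to 0.357 for the OPC to OGC ratio, from 3276 to 3660 unique fragments, from 1.92 to 2.31 for the longest step and from 0.566% to 1.36% for the islet. The 6 islet nuclei of replicate 1 set the precision of the last range.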
